A study of Homo sapiens with 3 samples.

Results

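The Ikaros family comprises 5 zinc finger transcription factor genes, IKZF1 (Ikaros), IKZF2 (Helios), IKZF3 (Aiolos), IKZF4 (Eos) and IKZF5 (Pegasus). They were selected by name, after the Ensembl IDs of the count table were matched to GENCODE release 29, and all 5 were found among the 15808 genes of the table. RNA sequencing had been carried out on OCI-Ly10 cells after 6 h of MZ1, with 3 replicate libraries forming the single group of the labels. OCI-Ly10 is an established human line of diffuse large B cell lymphoma, and MZ1 is a bifunctional degrader that brings BET bromodomain proteins to the von Hippel-Lindau ubiquitin ligase. Every library came from treated cells, so levels and their spread between libraries are described and no effect of MZ1 was estimated. Whether the replicates were separate cultures is not stated, so each p-value concerns these samples only, and their scatter may be technical. The cells are 1 line, and fewer cells of a type and less RNA per cell cannot be told apart in bulk RNA.

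Ikaros proteins bind DNA through zinc fingers near the N terminus and pair with each other through fingers at the C terminus. In lymphocytes they act largely with chromatin remodelling and histone deacetylase complexes. IKZF1 is needed for lymphoid development, IKZF3 acts in later B cells, IKZF2 and IKZF4 are best known from regulatory T cells, and IKZF5 is a more distant member with wide expression. Lenalidomide and related drugs bring IKZF1 and IKZF3 to the ubiquitin ligase receptor cereblon through the second finger, and both proteins are then degraded. MZ1 uses another ligase.

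The coding sequence of that second finger is shown because such drugs act through it, and because near-identical paralogs could exchange reads. The sequences were read 5′ to 3′ in the sense of each gene from GENCODE release 29 transcripts (GRCh38), and capitals mark the codons of the cysteines and histidines that hold the zinc ion. Each lies within 1 coding exon, at chr7:50382557-50382619 for IKZF1 (plus strand, exon 5 of transcript IKZF1-221), chr2:213049801-213049863 for IKZF2 (minus strand, exon 5 of IKZF2-201), chr17:39791504-39791566 for IKZF3 (minus strand, exon 5 of IKZF3-203) and chr12:56027797-56027859 for IKZF4 (plus strand, exon 9 of IKZF4-201).
IKZF1: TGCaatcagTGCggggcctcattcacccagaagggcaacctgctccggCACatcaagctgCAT
IKZF2: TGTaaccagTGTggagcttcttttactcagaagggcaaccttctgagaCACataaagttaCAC
IKZF3: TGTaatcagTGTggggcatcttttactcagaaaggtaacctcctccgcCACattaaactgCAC
IKZF4: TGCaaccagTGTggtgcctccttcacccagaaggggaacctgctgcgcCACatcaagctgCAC

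These 4 sequences translate to the same 21 amino acids, while their bases were identical at only 74.6% to 87.3% of positions between members. Each starts at the first cysteine and residues on either side were not compared. The stretch thus does not show that all 4 members respond alike to such drugs. IKZF5 was left out of this set. Its protein held 4 matches of the classical zinc finger pattern, against 5 in each of the other members, and the 21-residue match most like the second finger of IKZF1 shared 6 of 21 residues with it. Every match holds both cysteines and the first histidine by the pattern itself, so counts of shared residues, here and below, include them. The pattern fixes the spacing of cysteines and histidines, so it can miss fingers, and its last match need not be the final finger. In all 5 members that last match lies near the C terminus, where the proteins pair. It lies at chr7:50400457-50400519 for IKZF1, chr2:213007462-213007524 for IKZF2, chr17:39765898-39765960 for IKZF3, chr12:56035167-56035229 for IKZF4 and chr10:122993882-122993944 for IKZF5 (minus strand, exon 5 of IKZF5-201).
IKZF1: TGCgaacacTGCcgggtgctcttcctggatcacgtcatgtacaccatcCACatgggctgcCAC
IKZF2: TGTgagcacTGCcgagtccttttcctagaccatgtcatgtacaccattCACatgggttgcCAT
IKZF3: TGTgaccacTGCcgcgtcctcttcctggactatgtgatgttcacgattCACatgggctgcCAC
IKZF4: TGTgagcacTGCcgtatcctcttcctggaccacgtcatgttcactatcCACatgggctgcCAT
IKZF5: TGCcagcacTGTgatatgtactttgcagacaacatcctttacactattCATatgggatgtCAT

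In this finger IKZF1 and IKZF2 again shared 21 of 21 residues, and IKZF5 shared 12 or 13 of 21 with each other member. The longest run of identical bases in any annotated transcript of a pair of members was 33 bases, between IKZF1 and IKZF3, and 14 to 24 bases in the other 9 pairs. No source used here gives the read length, so whether reads as short as these runs were counted was not tested.

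The 3 libraries held 5474462, 1441246 and 1314812 counts, so 1 count was worth 0.20, 0.629 and 0.767 CPM (reads relative to the TMM-scaled library size) in replicates 1, 2 and 3. The 5 members together had 717, 293 and 229 counts. Replicate 1, the deepest, also stood apart across the table. By the chi-square test described with the members, 45.2% of genes differed between replicates 1 and 3 and 56.2% between replicates 1 and 2, against 33.8% between replicates 2 and 3, and the greater depth of replicate 1 gives its pairs more power. The B cell markers MS4A1, CD79A, CD79B, CD22 and PAX5 each reached 1 CPM in every library, with summed levels of 1532, 1074 and 1864 CPM in replicates 1, 2 and 3. Of 7 T and NK cell markers only CD2 was found among the matched genes, with 7, 0 and 0 counts. Of the regulatory T cell markers only IL2RA was found there, with 5.198, 1.26 and 2.30 CPM. The 4 myeloid markers found summed to 39.99, 28.9 and 26.8 CPM, of which MPO made up most.

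IKZF3 and IKZF1 were the abundant members. IKZF3 (ENSG00000161405.15, chromosome 17, 39757715 to 39864188, minus strand) had 265, 156 and 127 counts in replicates 1, 2 and 3, which gives 53.0, 98.05 and 97.4 CPM. Its mean was 82.8 ± 25.8 CPM (SD, n = 3), the form in which most later means are also given. Replicates 2 and 3 were alike and replicate 1 was lower, with a counting interval of 46.8 to 59.8 CPM that lay below those of replicate 2 (83.3 to 115 CPM) and replicate 3 (81.2 to 116 CPM). These are exact Clopper-Pearson 95% intervals, which cover counting error only, because without molecular identifiers a read does not stand for 1 molecule.

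IKZF1 (ENSG00000185811.15, chromosome 7, 50304068 to 50405101, plus strand) had 400, 116 and 84 counts in replicates 1, 2 and 3, or 80.0, 72.9 and 64.4 CPM. Its mean was 72.4 ± 7.78 CPM, with replicate 1 the highest, and the 3 counting intervals (72.3 to 88.2, 60.2 to 87.4 and 51.4 to 79.8 CPM) overlapped.

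IKZF5 and IKZF4 followed at a much lower level. IKZF5 (ENSG00000095574.10, chromosome 10, 122990806 to 123008817, minus strand) had 29, 11 and 7 counts, or 5.80, 6.91 and 5.37 CPM in replicates 1, 2 and 3, with a mean of 6.03 ± 0.797 CPM. IKZF4 (ENSG00000123411.13, chromosome 12, 56007659 to 56038435, plus strand) had 19, 8 and 9 counts, or 3.80, 5.03 and 6.90 CPM, with a mean of 5.24 ± 1.56 CPM. The counting intervals of the 3 libraries overlapped for each of these genes, from 2.16 to 12.4 CPM at the extremes for IKZF5 and from 2.17 to 13.1 CPM for IKZF4.

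IKZF2 was close to the limit of detection. The gene (ENSG00000030419.15, chromosome 2, 212999691 to 213152427, minus strand) had 4, 2 and 2 counts, or 0.80, 1.26 and 1.53 CPM in replicates 1, 2 and 3. Its intervals reached from 0.218 to 2.05 CPM in replicate 1, 0.152 to 4.54 CPM in replicate 2 and 0.186 to 5.54 CPM in replicate 3. A gene with no count would allow up to 0.60, 1.89 and 2.30 CPM (3 counts per library), so the values of replicates 2 and 3 are below what such a gene allows. By count, 4 of the 5 members reached 1 CPM in every library, against 68% of all genes in the table, and IKZF2 missed it in replicate 1. The median member had 5.80, 6.91 and 6.90 CPM in replicates 1, 2 and 3, and the median of all genes was 8.20, 7.54 and 8.44 CPM.

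Levels of different genes were compared per length. Per kb of merged exons (10.0 kb for IKZF3, 10.9 kb for IKZF1, 4.93 kb for IKZF5, 6.81 kb for IKZF4 and 12.2 kb for IKZF2), the order of the means was IKZF3 at 8.28 ± 2.58, IKZF1 at 6.63 ± 0.712, IKZF5 at 1.22 ± 0.162, IKZF4 at 0.770 ± 0.230 and IKZF2 at 0.0978 ± 0.0303 CPM per kb. On this scale IKZF3 lay above 69.3%, 82.0% and 79.7% of the 15668 genes with a known length in replicates 1, 2 and 3, and IKZF1 above 75%, 75.6% and 71.1%. IKZF5 and IKZF4 lay in the lower part, above 36.6% to 43.1% and 29.7% to 35.4% of genes, and IKZF2 above 11.9% to 14.0%.

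**Figure D1:**
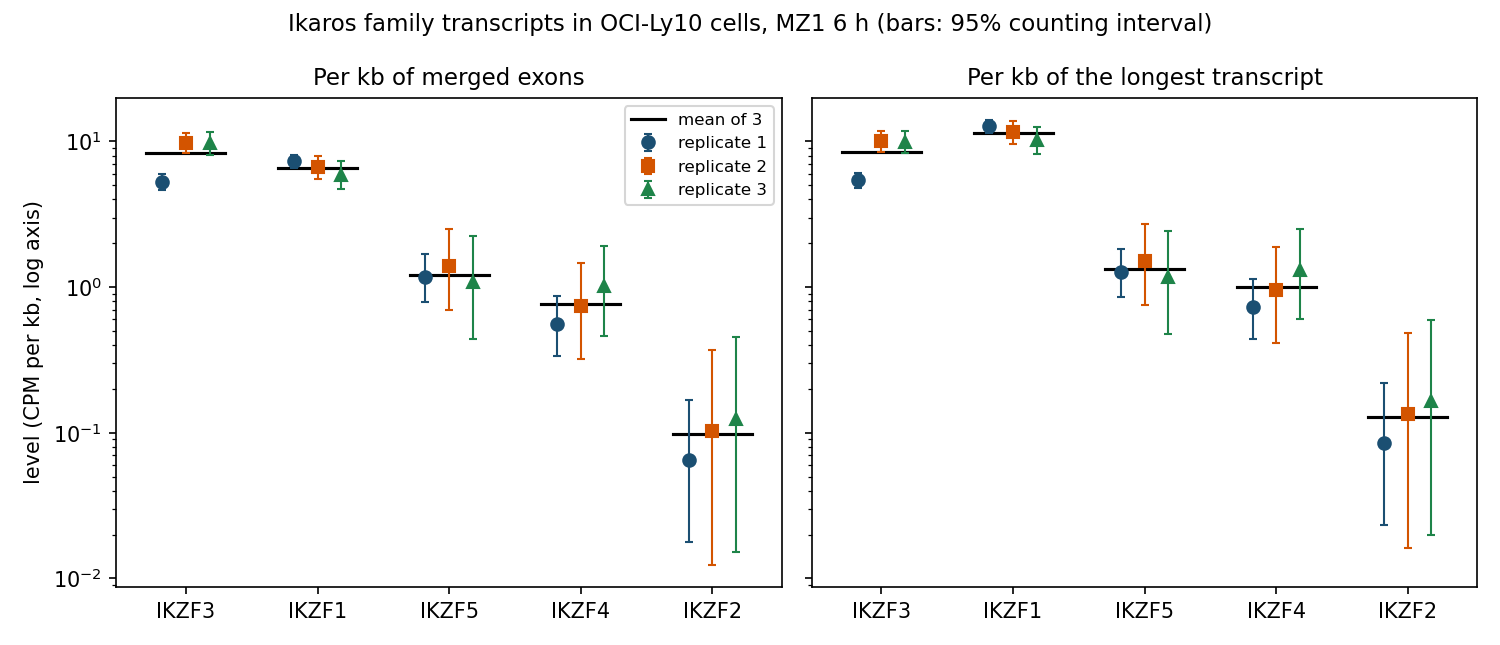
Levels of the 5 Ikaros family genes in CPM per kb (log axis) in the 3 libraries of MZ1-treated OCI-Ly10 cells, per kb of merged exons (left) and of the longest transcript (right). Points are libraries with 95% counting intervals and black lines are means; IKZF3 and IKZF1 stand clear of IKZF5 and IKZF4, IKZF2 is lowest, and IKZF1 and IKZF3 change places with the length used.

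The family level summed to 14.4, 18.7 and 17.9 CPM per kb in replicates 1, 2 and 3 (17.0 ± 2.28). IKZF1 and IKZF3 together made up 87.5%, 88.0% and 87.5% of it, a share that barely moved although its parts did. The share of IKZF3 was 36.7%, 52.4% and 54.5%, and that of IKZF1 was 50.8%, 35.7% and 33.0% in replicates 1, 2 and 3. IKZF5 held 7.25 ± 1.05%, IKZF4 4.50 ± 1.02% and IKZF2 0.568 ± 0.125%.

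The order of the 2 abundant members was not settled by these libraries. Of their joint counts IKZF1 took 60.2% in replicate 1 (exact 95% interval 56.3 to 63.9%), 42.6% in replicate 2 (36.7 to 48.8%) and 39.8% in replicate 3 (33.2 to 46.8%). IKZF1 was thus the more counted gene in replicate 1 and IKZF3 in replicates 2 and 3, with the interval on its own side of 50% in each library. The log2 ratio of IKZF1 over IKZF3 per kb of merged exons was 0.46, -0.55 and -0.72 in the 3 libraries, with a mean of -0.27 ± 0.64 (p = 0.5 by an exact permutation of signs, two-sided, and 0.5 after Benjamini-Hochberg adjustment over 10 pairs). With 3 libraries this test cannot give less than 0.25, so no pair could pass 0.05.

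**Figure D2:**
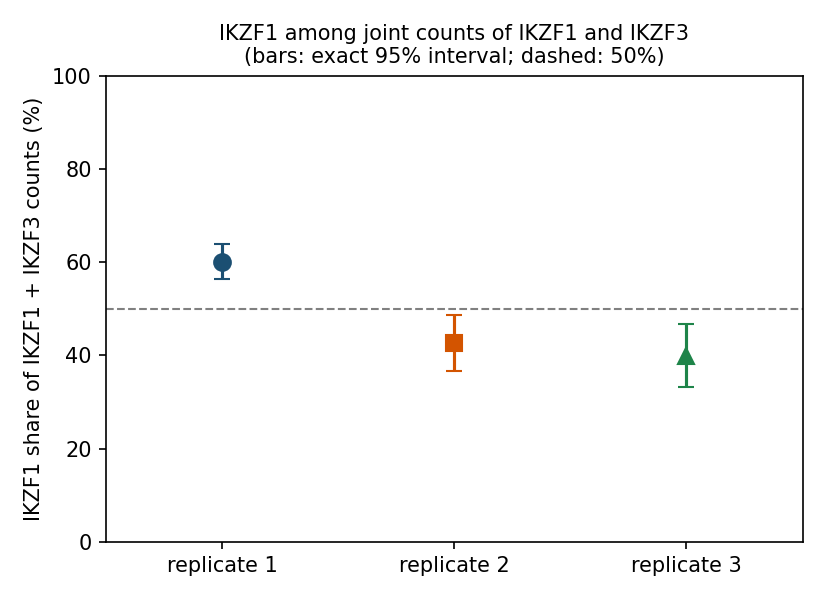
Share of IKZF1 in the joint counts of IKZF1 and IKZF3 (percent) by library, with exact 95% intervals and a dashed line at 50%. Replicate 1 lies above the line at 60.2%, and replicates 2 and 3 lie below it at 42.6% and 39.8%.

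The length used for the correction also decides this order. The longest annotated transcript is 6.30 kb for IKZF1 and 9.79 kb for IKZF3, so per kb of that transcript IKZF1 averaged 11.5 ± 1.23 and IKZF3 8.46 ± 2.64 CPM per kb, and the log2 ratio of IKZF1 over IKZF3 was 0.49 ± 0.64. In replicate 3 it was 0.04. The isoforms that these cells use were not measured, since the table counts whole genes.

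Other neighbours in the order were set apart more evenly. IKZF1 lay above IKZF5 by a log2 ratio per kb of 2.34 ± 0.18, a 5.05-fold difference, in 3 of 3 libraries (exact permutation p = 0.25, and 0.278 adjusted over 10 pairs), and IKZF3 lay above IKZF5 by 2.61 ± 0.50. IKZF4 relative to IKZF5 had a log2 ratio of -0.68 ± 0.48, with -1.02, -0.89 and -0.13 in replicates 1, 2 and 3, from 19, 8 and 9 counts of IKZF4 and 29, 11 and 7 counts of IKZF5. These neighbours had the same sign in 3 of 3 libraries, but IKZF4 had more counts in replicate 3, and per kb of the longest transcript the ratio there was 0.14. IKZF2 lay below IKZF4 in 3 of 3 libraries, where the log2 ratio averaged -2.59 ± 0.11 (p = 0.25 by the same exact permutation), a value that depends on the 0.5 CPM added to each level. With adjustment over the 10 pairs, the 9 pairs other than IKZF1 and IKZF3 each had p = 0.278 by the exact permutation test.

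Between libraries, IKZF3 was the member that varied. A chi-square test asked whether the 3 counts fit 1 shared level with counting error as the only spread. With Benjamini-Hochberg adjustment over the 10016 genes averaging at least 10 counts, it passed 0.05 for 1 of the 4 members tested, against 67.2% of all genes tested. The test compares libraries, not conditions. IKZF3 had an adjusted p of 1.59e-11, and IKZF1 (0.215), IKZF4 (0.372) and IKZF5 (0.863) did not pass by the same chi-square test. IKZF2, with a mean of 2.67 counts, was below the limit and was not tested.

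The counts limit these tests unevenly. Among genes with a mean count within 1.25 times that of IKZF1 (200 counts), 83.9% varied, and around that of IKZF3 (183 counts) 82.7% did. Around the mean counts of IKZF4 (12) and IKZF5 (15.7) the shares were 41.4% and 41%, so differences between libraries of these genes were less often detectable at this depth. IKZF1 thus had enough counts for most genes of its depth to pass the test, and did not pass it. Its SD of log2(CPM + 0.5) over the 3 libraries was 0.16, smaller than that of 91.5% of the 5707 genes averaging at least 50 counts, whose median SD was 0.47 and of which 80.3% varied by the chi-square test. IKZF3, with an SD of 0.51, lay near that median, and 54.0% of those genes had a smaller SD.

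The difference of IKZF3 lay between replicate 1 and the others. Its log2(CPM + 0.5) was 0.88 higher in replicate 2 than in replicate 1 and 0.87 higher in replicate 3 than in replicate 1, while replicates 3 and 2 differed by -0.01. Without replicate 1 the chi-square adjusted p was 0.688, against 33.8% of genes varying in that comparison. Without replicate 2 it was 7.20e-08 and without replicate 3 it was 3.36e-09, where 45.2% and 56.2% of genes varied. IKZF1, which did not pass in any of these comparisons, had log2 differences of -0.13 for replicate 2 minus 1 and -0.31 for replicate 3 minus 1.

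The differences between libraries were also set beside those of genes of like GC content, among genes averaging at least 10 CPM, and no trend with GC content was tested. IKZF3 and IKZF1 have longest transcripts of 45.8% and 48.3% GC. In the eighth of well-expressed genes that holds the GC content of IKZF3 (43.5 to 46.5%, 937 genes) the median differences were -0.002 (replicate 2 minus 1) and -0.06 (replicate 3 minus 1), against 0.88 and 0.87 for IKZF3 itself. In that of IKZF1 (46.5 to 49.9%) the medians were -0.11 and -0.10, against -0.13 and -0.31 for IKZF1. IKZF5, IKZF2 and IKZF4 averaged below 10 CPM, so they are not among these well-expressed genes. Each was set beside the eighth that spans its GC content. For the GC-poor members IKZF5 (35.8%) and IKZF2 (35.4%) the medians there were 0.32 and 0.09. IKZF5 had 0.24 and -0.10, and IKZF2 had 0.43 and 0.65 from counts of 4, 2 and 2. IKZF4, at 50.4% GC, had 0.36 and 0.78 from counts of 19, 8 and 9, against medians of -0.34 and -0.17.

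**Figure D3:**
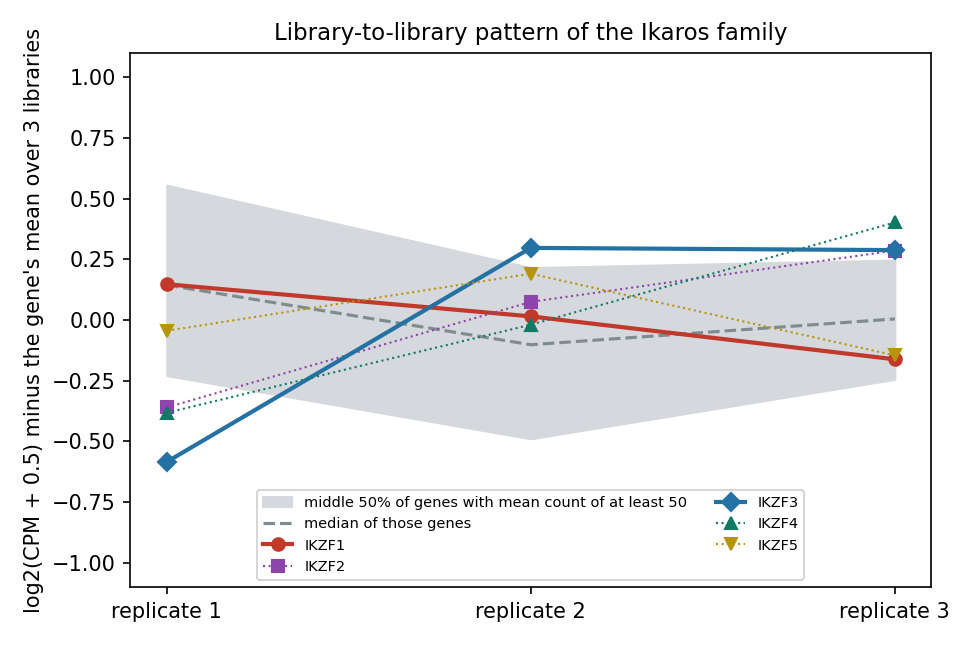
Deviation of log2(CPM + 0.5) from the mean over the 3 libraries for each Ikaros family gene, by library, with the middle 50% (grey) and median (dashed) of the 5707 genes averaging at least 50 counts. IKZF3 lies 0.58 below its mean in replicate 1 and 0.30 and 0.29 above it in replicates 2 and 3, while IKZF1 stays within 0.17 of its mean.

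Reads of an opposite-strand gene can enter a count where strand is not kept, and no source used here gives the strand setting. IKZF3, IKZF2 and IKZF4 have no exon overlap with an annotated gene on either strand. IKZF1 exons overlap 110 bases of the antisense gene AC124014.1, which was not found among the counted genes. IKZF5 exons overlap 81 bases of PSTK, a kinase gene of selenocysteine tRNA, which had 22, 5 and 3 counts, so reads in those bases cannot be assigned to 1 of the 2 genes.

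Many genes shared the library patterns of the abundant members. Over 3 libraries, a short series, likeness was measured as the distance between centred log2(CPM + 0.5) values among 5699 other genes averaging at least 50 counts. Nearest to IKZF3 were PRPF4B, a splicing kinase gene with 54.8, 102 and 100.5 CPM, SEM1, which encodes a small proteasome subunit and had 161, 298 and 298 CPM, and WASHC2A, with 18.4, 33.9 and 33.8 CPM in replicates 1, 2 and 3 (distances of 0.007, 0.011 and 0.012). Nearest to IKZF1 were CRIPT with 32.2, 29.5 and 26.1 CPM, YTHDF3, a reader of methylated adenosine in RNA with 72.6, 65.4 and 58.3 CPM, and HNRNPA1, an RNA-binding protein gene with 2446, 2270 and 1998 CPM (distances of 0.009, 0.013 and 0.018). Within a distance of 0.2 there were 179 genes around IKZF3 and 322 around IKZF1. WASHC2A and HNRNPA1 have near-identical copies elsewhere in the genome, which makes their counts uncertain, and CRIPT has exons that overlap PIGF on the opposite strand.

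The cereblon ligase, which drugs of the lenalidomide class direct to IKZF1 and IKZF3, was expressed in all its parts. All 5 listed genes reached 1 CPM in every library, against 68% of all genes. The receptor gene CRBN had 30.8, 22.6 and 22.2 CPM in replicates 1, 2 and 3. It averaged 3.13 ± 0.598 CPM per kb of merged exons, on the scale on which IKZF1 averaged 6.63 and IKZF3 8.28. The scaffold genes CUL4A and CUL4B averaged 11.1 ± 2.48 and 11.1 ± 0.932 CPM per kb. The adaptor gene DDB1 averaged 30.5 ± 7.42 and the RING finger gene RBX1 33.8 ± 19.2 CPM per kb. In replicate 2 RBX1 was below DDB1, at 18.1 against 25.4. Levels of these ligase genes per kb of the longest transcript were not compared. By the chi-square test 3 of 5 varied (DDB1, CUL4A and RBX1), against 67.2% of all genes tested, and CRBN did not pass (adjusted p = 0.134). CRBN, DDB1 and CUL4A share exonic bases with opposite-strand genes.

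Other proteins that cereblon drugs can recruit were listed beside the Ikaros genes. Of 12 such genes 10 were found among the matched genes. In every library 8 reached 1 CPM, against 68% of all genes, and 4 of 8 tested varied, against 67.2%. The translation termination gene GSPT1 had 185 ± 49.98 CPM, the kinase gene CSNK1A1 90.6 ± 15.1 and the zinc finger gene ZFP91 58.7 ± 13.0 CPM. ARID2, a subunit gene of a SWI/SNF remodeller, was the other gene that varied, at 11.4, 58.5 and 19.2 CPM in replicates 1, 2 and 3, and it was chosen with its values in view. The lowest was RNF166, with 8, 0 and 1 counts. ZFP91 and RNF166 share exonic bases with opposite-strand genes.

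Genes of the Mi-2/NuRD complex, the remodelling and deacetylase complex that Ikaros proteins bind, were expressed throughout. All 14 listed genes reached 1 CPM in every library, against 68% of all genes. The median gene of the list had 113, 110 and 123 CPM in the 3 libraries, against 8.20, 7.54 and 8.44 CPM for all genes, and 12 of 14 varied, against 67.2% of all genes tested and 80.3% of those averaging at least 50 counts. CHD4, the main remodelling ATPase, had 568, 862 and 716 CPM. CHD3, a related ATPase, had 241 ± 61.3, the histone-binding gene RBBP4 231 ± 17.5 and the deacetylase gene HDAC1 226 ± 16.0 CPM, and HDAC1, chosen after its values were seen, and RBBP4 were the members that did not pass the test (adjusted p = 0.127 for HDAC1 and 0.119 for RBBP4, chi-square test). The lowest was CHD5, at 13.3 ± 4.82 CPM. Opposite-strand genes overlap exons of CHD4 and RBBP4.

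Among 5 other corepressor genes linked to Ikaros proteins, 4 reached 1 CPM in every library, against 68% of all genes, and 3 of 4 tested varied, against 67.2%. SIN3A, a scaffold of deacetylase complexes, had 54.3 ± 13.7, RBBP8, which encodes CtIP, 48.6 ± 5.49, CTBP1 44.1 ± 14.1 and SIN3B 17.6 ± 8.50 CPM. CTBP2, the paralog of CTBP1, had 0, 8 and 4 counts, where a count of 0 allows up to 0.60 CPM in replicate 1. RBBP8 was the tested gene that did not pass (chi-square adjusted p = 0.205). Opposite-strand genes overlap exons of SIN3A, CTBP1 and CTBP2.

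Genes studied as targets of Ikaros factors ranged widely in level. Of 10 genes 4 reached 1 CPM in every library, against 68% of all genes, and the median gene had 2.50, 2.20 and 0.767 CPM in the 3 libraries, against 8.20, 7.54 and 8.44 CPM for all genes. Those best known from early B cell precursors did not reach 1 CPM in every library. VPREB1, a surrogate light chain gene, RAG2, a recombinase gene, and IL7R, the interleukin receptor gene, had no count in any library, which allows up to 0.60, 1.89 and 2.30 CPM. The surrogate light chain gene IGLL1 had 1, 0 and 1 counts, the terminal transferase gene DNTT 5, 4 and 1 and the recombinase gene RAG1 20, 9 and 1 counts. In replicates 1 and 2 RAG1 was thus about as abundant in counts as IKZF4, which had 19 and 8 there.

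The transcription factor genes SPIB and IRF4, which act in activated B cells, were the most abundant of the list, at 1401 ± 219 and 401 ± 126 CPM, followed by MYC at 30.7 ± 4.81 CPM. The cyclin gene CCND3 had 12.6, 1.89 and 12.3 CPM in replicates 1, 2 and 3, from 63, 3 and 16 counts. SPIB, IRF4 and CCND3 varied, 3 of the 5 that could be tested, against 67.2% of all genes tested. Per kb of merged exons SPIB averaged 327 ± 51.3, IRF4 68.0 ± 21.3 and the B cell factor PAX5 10.3 ± 2.75 CPM. On that scale IKZF3 averaged 8.28 and IKZF1 6.63. Levels of SPIB, IRF4 and PAX5 per kb of the longest transcript were not compared. Opposite-strand genes overlap exons of CCND3, RAG1, RAG2, IGLL1 and PAX5.

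**Figure D4:**
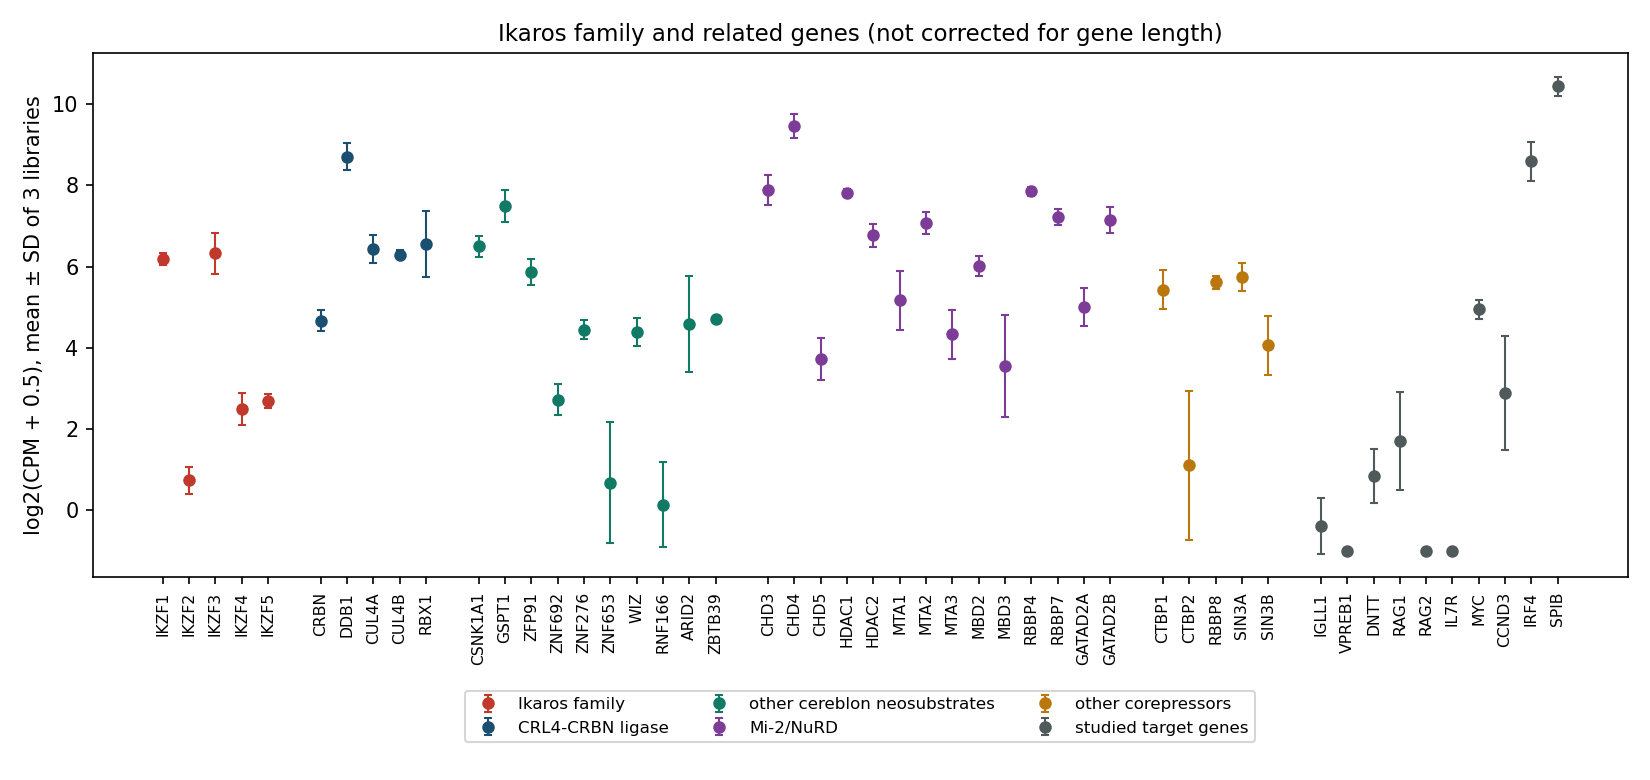
Mean log2(CPM + 0.5) with SD over 3 libraries for the Ikaros family and 5 lists of related genes, not corrected for gene length, so heights of different genes also reflect their lengths. IKZF1 and IKZF3 lie at 6.18 and 6.33, IKZF5, IKZF4 and IKZF2 at 2.70, 2.49 and 0.74, all 14 NuRD genes lie above IKZF4 and IKZF5, and VPREB1, RAG2 and IL7R, with no count, lie lowest at -1.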

How the data were processed

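The data are RNA sequencing of OCI-Ly10 cells after 6 h of MZ1, in 3 libraries. The deposited table holds raw read counts per Ensembl gene, not normalized. The second deposited table holds log2 CPM values that the authors computed from these counts with an offset, and it was used as an alternative. STAR, edgeR and hg38 were used, per the submitters' processing notes. The counting tool, its treatment of strand, the annotation and all versions are not given in the sources used. Per the labels' protocols, RNA was extracted with Trizol and libraries were made with an Illumina TruSeq RNA kit.

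IDs were matched without their version to GENCODE release 29 on GRCh38 (15668 of 15808 genes). The versions of the 5 members differ from that release, so exon lengths may differ from those counted. Counts were scaled with TMM (edgeR 4.0.16, R 4.3.3; factors of 0.914, 1.10 and 0.991) into CPM. Log2 values are log2(CPM + 0.5). The chi-square test used SciPy 1.17.1 and was tested on simulated counts. These held counting error and set changes in 1 library, without the further spread between libraries that real data can have. Exon overlaps were found with pyranges 0.1.4. Alternatives were size factors of DESeq2 1.42.0, column totals, log2 values as deposited, other pseudocounts, lengths, count filters and thresholds, and leaving out each library.

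The named genes are the members, the 3 highest and the lowest gene of each related list of more than 5 genes, every gene of the shorter lists, opposite-strand partners of members and the 3 nearest patterns to members of at least 50 mean counts. CCND3, DNTT, IGLL1 and RAG1 of the target list, HDAC1 and ARID2 were added with their values in view. The members, lists and tests were chosen with earlier results of these data known. One listed marker gene is not reported here.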

Additional observations from a re-analysis of the deposited data

How the results depend on the processing

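Of the 10 pair ratios, that of IKZF1 over IKZF3 changed direction under 1 setting, length of the longest transcript, where its log2 value was 0.49, against -0.27 per kb of merged exons, because that transcript is shorter for IKZF1. Without 1 library at a time it ranged from -0.64 to -0.04. The deposited log2 values gave means of 6.62 for IKZF1, 2.88 for IKZF4 and 3.10 for IKZF5. These lay above 6.18, 2.49 and 2.70 from the counts by more than the SD. The means of IKZF3 (6.76 against 6.33) and IKZF2 (1.02 against 0.74) were also higher, by less than their SDs. The cause was not tested. The summed family level was 22.4 CPM per kb with the longest transcript and 168 CPM with no length correction, against 17.0, and 15.4 to 19.2 without 1 library. The number of genes varying between libraries was 2854 to 5890 without 1 library, against 6728 of all 3, with the lowest value without replicate 1. No paired analysis was possible because the labels hold a single group. Low counts limit IKZF2, IKZF4 and IKZF5, whose means were 2.67, 12 and 15.7.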
